A study of Rattus norvegicus with 12 samples.

Results

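Messenger RNA of 6 rat glutathione transferase genes was followed in cerebellum, spinal cord and sciatic nerve after acrylamide. The genes were Gstp1 of the pi class, Gsta1 and Gsta4 of the alpha class, Gstm1 and Gstm2 of the mu class, and the membrane-bound Mgst1. Every probe set whose only gene symbol in the platform annotation was 1 of these names was taken, which gave 1 probe set for each of these 6 genes. The probe sets were 1388122_at for Gstp1, 1367774_at for Gsta1, 1372297_at for Gsta4, 1386985_at for Gstm1, 1370952_at for Gstm2 and 1367612_at for Mgst1. The arrays held 31042 probe sets beside control probe sets and named 14217 genes by 1 symbol. All 6 members passed the filter on low signals in every tissue. Acrylamide is a vinyl monomer that damages long axons and nerve endings. The acrylamide groups were young male Wistar rats that received 30 mg/kg of it each day by oral gavage. Their controls were rats of the same strain, sex and age that received saline, which another label calls solvent. The age at the start is given as 25 days in one label and as 3 weeks in another, and dosing is given as daily for 21 days or collection as 21 days after treatment, so the time since the last dose is not settled. Each of the 3 tissues had 2 acrylamide and 2 saline arrays, and RNA from 2 rats was pooled for every array. P-values therefore measure the spread between pools. It is not stated if a rat gave all 3 of its tissues.

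Glutathione transferases join the thiol of glutathione to electrophilic molecules. Acrylamide and its epoxide glycidamide are such electrophiles, and their glutathione conjugates are trimmed and leave the body in urine as mercapturic acids. The pi, alpha and mu enzymes are soluble and work in pairs of subunits, while Mgst1 sits in membranes of the endoplasmic reticulum and the outer mitochondrial membrane. In the nervous system these enzymes are known mainly from glia and other non-neuronal cells. Several of their genes are targets of NRF2, a transcription factor that electrophiles release from its inhibitor KEAP1 and that binds antioxidant response elements in DNA.

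The promoters of 4 members are shown because Gstp1, Gsta1 and Gstm1 had higher signals after acrylamide in all 3 tissues and Gsta4 in the cerebellum. They are RefSeq sequences of assembly GRCr8, each of 300 bases, from 250 bases before the annotated start of the gene to 50 bases after it, and all 6 members had such a window. Each is printed 5′ to 3′ along the strand of the gene. The windows lie at chr1:210769656-210769955 on the minus strand for Gstp1, chr9:31216483-31216782 on the minus strand for Gsta1, chr2:198343334-198343633 on the minus strand for Gstm1 and chr8:87947015-87947314 on the plus strand for Gsta4. Capitals mark a match to the core of the antioxidant response element, TGACNNNGC, searched on both strands.
Gstp1: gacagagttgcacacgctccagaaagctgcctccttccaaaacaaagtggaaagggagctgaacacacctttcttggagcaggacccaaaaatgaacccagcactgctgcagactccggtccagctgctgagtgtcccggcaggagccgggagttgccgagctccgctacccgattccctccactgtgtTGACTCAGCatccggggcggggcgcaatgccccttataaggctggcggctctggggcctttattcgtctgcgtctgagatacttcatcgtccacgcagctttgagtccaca
Gsta1: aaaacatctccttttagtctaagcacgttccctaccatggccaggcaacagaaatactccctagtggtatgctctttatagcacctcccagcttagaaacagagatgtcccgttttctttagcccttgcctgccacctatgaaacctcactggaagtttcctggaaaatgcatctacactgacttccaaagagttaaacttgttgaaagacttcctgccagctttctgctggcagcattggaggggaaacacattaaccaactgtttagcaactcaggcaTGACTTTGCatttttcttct
Gstm1: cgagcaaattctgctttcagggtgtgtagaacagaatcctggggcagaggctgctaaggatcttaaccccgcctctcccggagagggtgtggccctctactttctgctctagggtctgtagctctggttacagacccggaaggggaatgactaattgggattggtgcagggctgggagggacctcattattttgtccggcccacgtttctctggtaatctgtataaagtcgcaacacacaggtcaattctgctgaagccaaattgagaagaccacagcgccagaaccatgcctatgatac
Gsta4: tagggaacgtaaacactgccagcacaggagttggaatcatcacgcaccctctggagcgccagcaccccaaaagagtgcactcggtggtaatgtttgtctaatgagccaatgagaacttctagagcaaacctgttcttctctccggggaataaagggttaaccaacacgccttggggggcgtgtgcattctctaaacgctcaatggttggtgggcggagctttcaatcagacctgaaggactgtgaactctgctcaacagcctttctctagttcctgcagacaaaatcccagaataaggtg

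Gstp1 held TGACTCAGC from base -61 to base -53 before its start, and the letters TGACTCA of the AP-1 site, searched on both strands, overlap it from base -61 to base -55. Gsta1 held TGACTTTGC from base 31 to base 39 after its start. The windows of Gstm1, Gsta4, Gstm2 and Mgst1 held neither motif. Across the RefSeq table, 12.1% of windows of this length (4038 of 33469) held the antioxidant response element core and 4.63% (1550) the AP-1 letters. These matches describe letters in the DNA, since the arrays measured no binding, and the well-known enhancer of rat Gstp1 lies farther upstream than this window.

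The arrays gave 1 signal per probe set in arbitrary units, with array medians between 162 and 199 and a correlation between replicates of 0.966 to 0.983. Their number limits the precision. Marker genes matched the labelled tissues: the summed signal of 7 cerebellar neuron markers was 66369 to 71653 in the cerebellum and 1364 to 2031 in the spinal cord, and 5 Schwann cell markers summed to 81939.8 to 102517 in the nerve and 1672 to 1994 in the cerebellum. High sums of muscle, fat cell or cerebellar neuron markers were seen on 1 cord array and 3 of the 4 nerve arrays. Schwann cell markers were also high on all 4 cord arrays, with sums of 31447 to 34034 with acrylamide and 39839.5 to 42497 with saline. The spinal cord array of saline replicate 1 had a summed muscle signal of 47783, against 947 to 1409 on the other cord arrays. The nerve arrays of acrylamide replicate 1 and saline replicate 1 had cerebellar neuron sums of 10880.1 and 8249.9, against 714 on acrylamide replicate 2 and 760.3 on saline replicate 2. The muscle sum of the nerve arrays (7 of 8 markers on the array) was 2077 and 25500.1 on acrylamide replicates 1 and 2, and 6949.6 and 872 on saline replicates 1 and 2. The nerve array of saline replicate 1 also had a fat cell sum of 38733, against 9405 to 15483 on the other nerve arrays. Both nerve acrylamide arrays thus carried markers of another tissue, and no nerve comparison was free of them. Results are given with all arrays. The changes without arrays high in muscle, fat cell or cerebellar neuron markers are given after the members. They come from 3 alternatives added once the data had been seen.

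Acrylamide was compared with saline to ask whether these genes responded to the toxicant. Gstp1, Gsta1 and Gstm1 had higher signals in the acrylamide rats in all 3 tissues, with every acrylamide array above every saline array of its tissue. Averaged over the tissues, they were 1.33-, 1.40- and 1.24-fold higher. Gsta4 was 1.62-fold higher in the cerebellum but not in the spinal cord or nerve, Mgst1 was higher in the cerebellum and spinal cord, and Gstm2 showed no shared direction. No member passed limma's Benjamini-Hochberg adjusted p of 0.05 over all probe sets in a tissue or in the average, so these are differences in size with unadjusted p-values. In whole tissue, more RNA per cell and more cells of a type cannot be told apart. The members were chosen with earlier results of these data known, so their shares beside those of all probe sets are descriptive only.

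**Figure D1:**
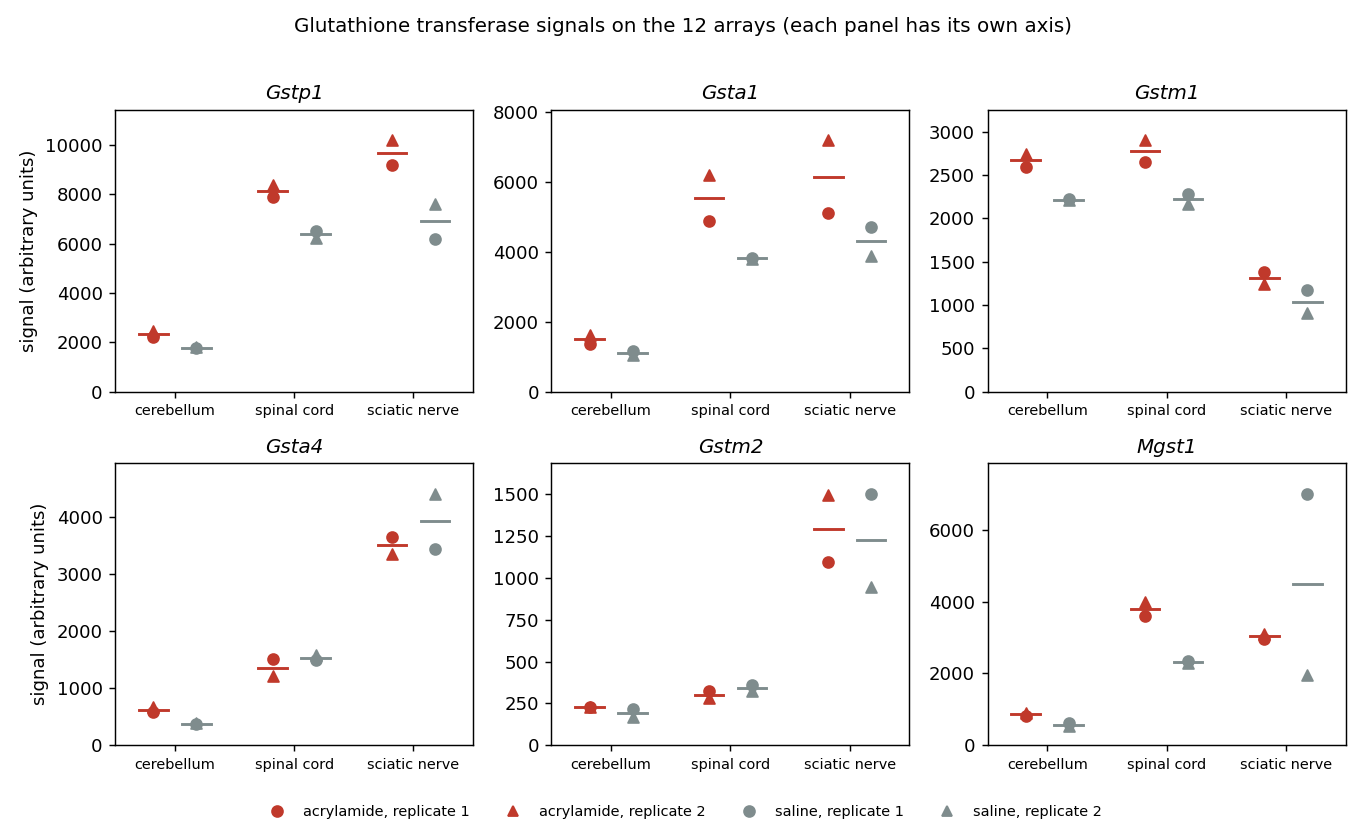
Signal in arbitrary units of the 6 glutathione transferase probe sets in each tissue, with acrylamide arrays in red left of saline arrays in grey, circles for replicate 1, triangles for replicate 2 and a line at the mean of 2 arrays. For Gstp1, Gsta1 and Gstm1 both acrylamide arrays lie above both saline arrays in every tissue, while the Mgst1 signal of 7003 on nerve saline replicate 1 stands far above the other nerve arrays.

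In the cerebellum, 6 of 6 members had both acrylamide arrays above both saline arrays, where 17.1% of the 18780 probe sets tested did. An unadjusted p under 0.05 with a higher signal was reached by 4 of 6, Gstp1, Gsta1, Gsta4 and Gstm1, against 1.3% of all. In the spinal cord 4 of 6 members did not overlap in this direction, Gstp1, Gsta1, Gstm1 and Mgst1, against 17.7% of 18934 probe sets, and 3 of 6 (Gstp1, Gsta1 and Gstm1) had an unadjusted p under 0.05, against 1.02%. In the sciatic nerve the same 3 genes did not overlap, against 13.3% of 18161 probe sets, and all 3 had an unadjusted p under 0.05, against 2.72%. No probe set passed the adjusted threshold in the cerebellum or spinal cord (0% of those tested), where 516 and 546 had an unadjusted p under 0.05, and 0.00551% passed in the nerve.

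In the average of the 3 tissues, 3 of 6 members were higher without overlap in every tissue, against 0.747% of 15807 probe sets, and the same 3 had an unadjusted p under 0.05, against 2.66%. The adjusted threshold was passed by 0.0127% of probe sets there. The median log2 difference of the 6 members was 0.41 in the cerebellum, 0.33 in the spinal cord, 0.22 in the nerve and 0.32 in the average. The medians of all probe sets tested lay between -0.0002 and 0.004 in the same comparisons. The 3 tissues were measured with separate arrays, so the values of a gene in different tissues share no array, although they may share rats. Errors, intervals and p-values of the average take the tissues as independent.

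Gstp1, the pi class enzyme, had signals of 2224 and 2443 in acrylamide cerebellum and 1771 and 1798 in saline cerebellum. In the spinal cord its signals were 7905 and 8356 with acrylamide and 6516 and 6221 with saline, and in the nerve 9173 and 10189 with acrylamide and 6200.3 and 7601 with saline. Both acrylamide arrays were the highest of their tissue each time, with no overlap. The log2 difference was 0.38 ± 0.10 (SE, n = 2 per group) in the cerebellum, 0.35 ± 0.10 in the spinal cord and 0.49 ± 0.10 in the nerve, with unadjusted p-values from limma of 0.00429, 0.00692 and 0.000857. The average was 0.41 ± 0.06, with a 95% interval of 0.28 to 0.54 if the tissues are independent. Its p ranked 7 of 15807 probe sets (limma unadjusted p = 5.97e-05, adjusted p = 0.121). It passed with quantile normalization (0.43, limma adjusted p = 0.0188), where 4 of 15797 probe sets did. Its calls without nerve saline replicate 1 (0.36) or replicate 2 (0.46) rest on 1 nerve saline array. Its call without cord saline replicate 1 and both nerve replicate 1 arrays rests on groups of 1 array too. In the rest of its 25 alternatives it did not pass, among them the fit without cord saline replicate 1 and all nerve arrays. The difference between the tissues' effects was small beside its error, with an F of 0.537 (limma unadjusted p = 0.602).

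Gsta1, an alpha class subunit, had signals of 1374 and 1619 in acrylamide cerebellum and 1164 and 1042 in saline cerebellum. Its cord signals were 4877 and 6199 with acrylamide and 3827 and 3792 with saline, and its nerve signals 5094 and 7188 with acrylamide and 4719 and 3868 with saline. The acrylamide arrays were again above the saline arrays, with replicate 2 the higher acrylamide array in each tissue. The log2 differences were 0.43 ± 0.18, 0.53 ± 0.18 and 0.50 ± 0.18 in cerebellum, cord and nerve (SE, n = 2 per group, limma unadjusted p = 0.0384, 0.0160 and 0.0205). The average was 0.49 ± 0.10 (limma unadjusted p = 0.00106, adjusted p = 0.363), with a 95% interval of 0.25 to 0.72. The nerve difference was 0.25 without acrylamide replicate 2, the nerve array with the muscle sum of 25500.1, and 0.75 without acrylamide replicate 1.

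Gstm1, a mu class subunit, had signals of 2588 and 2746 in acrylamide cerebellum and 2221 and 2212 in saline cerebellum. Its cord signals were 2652 and 2902 with acrylamide and 2284 and 2168 with saline, and its nerve signals 1387 and 1246 with acrylamide and 1170.2 and 911 with saline. The groups did not overlap in any tissue, and the gap was narrowest in the nerve, between acrylamide replicate 2 and saline replicate 1. The log2 differences were 0.26 ± 0.12, 0.32 ± 0.12 and 0.34 ± 0.12 (SE, n = 2 per group, limma unadjusted p = 0.0491, 0.0238 and 0.0162), and the average was 0.31 ± 0.07 (limma unadjusted p = 0.00129, adjusted p = 0.405). The nerve difference was 0.17 without nerve saline replicate 2. Without nerve saline replicate 1, the nerve difference was 0.52 and the average 0.37.

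**Figure D2:**
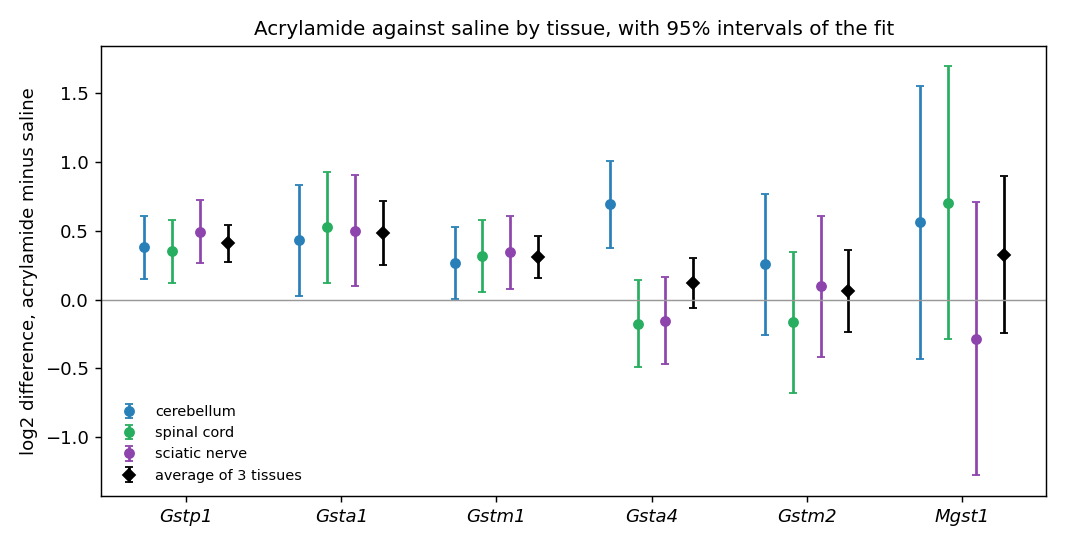
Log2 difference of acrylamide minus saline for each gene in cerebellum, spinal cord and sciatic nerve (circles) and averaged over the 3 tissues (black diamonds), with 95% intervals from limma. Gstp1, Gsta1 and Gstm1 lie above 0 in every tissue with averages of 0.41, 0.49 and 0.31, Gsta4 lies at 0.69 in the cerebellum alone, and Mgst1 has the widest intervals.

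Gsta4, the alpha class enzyme that clears 4-hydroxynonenal and other lipid aldehydes, differed from these 3 in its pattern. Its cerebellar signals were 586 and 663 with acrylamide and 370.04 and 389 with saline, a log2 difference of 0.69 ± 0.14 (SE, n = 2 per group) whose p ranked 11 of 18780 (limma unadjusted p = 0.000752). In the spinal cord the signals were 1511 and 1215 with acrylamide and 1490.5 and 1578 with saline, and in the nerve 3653 and 3359.7 with acrylamide and 3449 and 4414 with saline. Both of these comparisons overlapped, with differences of -0.18 ± 0.14 and -0.15 ± 0.14. The cord difference was -0.33 without acrylamide replicate 1 and -0.02 without acrylamide replicate 2, and the nerve difference lay between -0.33 and 0.02 with 1 saline array left out. The acrylamide effect in the cord minus that in the cerebellum was -0.87 ± 0.20, and that in the nerve minus that in the cerebellum was -0.85 ± 0.20 (limma unadjusted p = 0.00167 and 0.00197). The F test of unequal effects ranked Gsta4 at 11 of 15807 (F = 12.6, limma unadjusted p = 0.00239) but it did not pass after adjustment over all probe sets. It was the only member of 6 with an unadjusted p under 0.05 in that test, against 2.36% of all probe sets, of which 0% passed the adjusted threshold.

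Gstm2, the other mu class member, had signals of 227 and 231 in acrylamide cerebellum and 214 and 166 in saline cerebellum. The cord signals were 323 and 283 with acrylamide and 362 and 322 with saline, and the nerve signals 1094 and 1494 with acrylamide and 1505 and 949 with saline. The cerebellar groups were separate by a narrow margin, and the cord and nerve groups overlapped. The log2 differences were 0.26, -0.17 and 0.10, each with an SE of 0.23, and the average was 0.06 ± 0.13, with a 95% interval of -0.23 to 0.36 that spans both directions. The cerebellar difference was 0.43 without saline replicate 1 and 0.09 without saline replicate 2. In the cord it was -0.26 without acrylamide replicate 1 and -0.08 without acrylamide replicate 2, and in the nerve it was 0.42 without saline replicate 1 and -0.23 without saline replicate 2.

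Mgst1, which also reduces lipid peroxides, had cerebellar signals of 821 and 894 with acrylamide and 623 and 531 with saline. Its cord signals were 3604 and 3987 with acrylamide and 2351 and 2290.2 with saline. These were 1.48- and 1.63-fold differences on the scale of the fit, larger in size than those of Gstp1 or Gsta1 in the same tissues, and the groups did not overlap. The nerve signals were 2962 and 3107 with acrylamide and 7003 and 1951 with saline, so both acrylamide arrays lay between the saline arrays. The model shares 1 spread per probe set among the 6 groups, and the nerve saline pair sets an SE of 0.44 for Mgst1 in every tissue. The log2 differences were 0.56 in the cerebellum, 0.70 in the cord and -0.28 in the nerve, and the average was 0.33 ± 0.25 (SE, limma unadjusted p = 0.229).

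Without nerve saline replicate 1, the nerve difference of Mgst1 was 0.63 and its average was 0.63. Without nerve saline replicate 2, the nerve difference was -1.20. Each of these fits rests on 1 nerve saline array. The direction in the nerve thus rested on which saline array was kept. On these 4 nerve arrays the summed fat cell signal (6 of 6 markers on the array, all above the filter signal) was 11767 and 15483 with acrylamide and 38733 and 9405 with saline. The microglia and macrophage sum (8 of 8 markers) was 7559 and 8761 with acrylamide and 13150.3 and 4730.3 with saline. Mgst1 and both sums were highest on saline replicate 1 and lowest on saline replicate 2. So was the red blood cell sum (2 of 6 markers on the array), at 3924.6 and 1768. The part of these cells in the Mgst1 values was not tested.

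**Figure D3:**
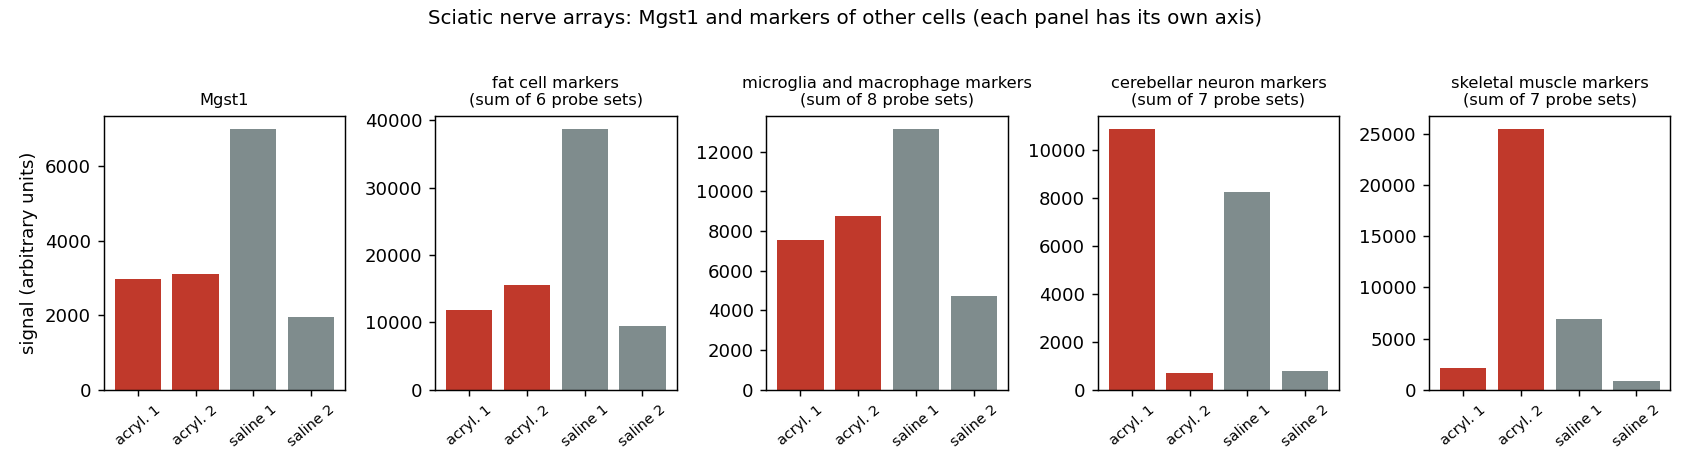
Signals in arbitrary units on the 4 sciatic nerve arrays, acrylamide in red and saline in grey, for Mgst1 and for the summed markers of fat cells, microglia with macrophages, cerebellar neurons and muscle. Mgst1 (7003), the fat cell sum (38733) and the microglia and macrophage sum (13150.3) are highest on saline replicate 1, while the cerebellar neuron sum is high on both replicate 1 arrays and the muscle sum is highest on acrylamide replicate 2 (25500.1).

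The microglia and macrophage markers were also higher after acrylamide in the central tissues. Their summed signal was 3099.7 and 3367 in acrylamide cerebellum and 2196 and 2207 in saline cerebellum, and 8409 and 8305 in acrylamide cord and 5756 and 5871 in saline cord. In the cerebellum 7 of 8 markers lay above the filter signal of 112 on each acrylamide array and 5 and 6 on the saline arrays, and in the cord all 8 did on every array. The sum of 7 astrocyte markers was 41309 to 41406 in acrylamide cerebellum and 37603 to 39280.1 in saline cerebellum, and 53280.4 to 54009 in acrylamide cord and 48545 to 48892 in saline cord. In the cord the sum of 5 Schwann cell markers was 31447 to 34034 with acrylamide and 39839.5 to 42497 with saline, and that of 6 fibroblast and meninges markers 17876 to 22155 with acrylamide and 25847 to 28085 with saline. Their part in the differences of the glutathione transferases was not tested.

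The calls, over all probe sets as well as the members, depended on which of the arrays high in muscle, fat cell or cerebellar neuron markers were kept. With cord saline replicate 1 and all nerve arrays left out, no cord array with a high muscle sum remained, and the average was over cerebellum and cord. The cord arrays kept still had high Schwann cell sums, which were lower with acrylamide than with saline. No probe set, and so none of the 6 members, then passed the adjusted threshold in the average. Gstp1 was higher by 0.38 ± 0.06 (SE, limma adjusted p = 0.106), Gsta1 by 0.48 ± 0.10 (0.268), Gstm1 by 0.31 ± 0.06 (0.197), Mgst1 by 0.64 ± 0.08 (0.0680) and Gsta4 by 0.24 ± 0.10 (0.747), while Gstm2 was at 0.09 ± 0.13.

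Without the 2 arrays with the highest muscle sums, cord saline replicate 1 and nerve acrylamide replicate 2, no probe set passed in the average either, and so no member did. Without cord saline replicate 1 and both nerve replicate 1 arrays, 4 of 6 members passed the adjusted threshold in the average. Gstp1 was higher by 0.40 ± 0.05 (SE, limma adjusted p = 0.0143), Gsta1 by 0.62 ± 0.09 (0.0226), Gstm1 by 0.35 ± 0.05 (0.0265) and Mgst1 by 0.65 ± 0.07 (0.0117). In the nerve 1 array per group was then left and is assumed to vary like the other groups. The acrylamide array left was replicate 2, with a muscle sum of 25500.1 against 872 on the saline array left, and the part of muscle in these values was not tested. Gsta1 passed there at 0.89 ± 0.18 (adjusted p = 0.0472). Gstm2 was then at 0.65 ± 0.20 in the nerve and 0.27 ± 0.10 in the average, and Gsta4 at -0.39 ± 0.16 in the nerve and 0.03 ± 0.08 in the average, none past the threshold. An unadjusted p under 0.05 with a higher signal was then reached by 5 of 6 members in the cerebellum, 4 in the cord, 5 in the nerve and 5 in the average, against 2.55%, 2.62%, 9.06% and 7.29% of all probe sets. Over all probe sets 150 then passed in the average and 335 in the nerve, where 2 and 1 had passed with all arrays.

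The tissues were then compared in saline rats, to describe the level of each gene in the tissue samples without the toxicant. These arrays carried markers of other tissues. The saline cord arrays had Schwann cell sums of 39839.5 and 42497, and cord replicate 1 a muscle sum of 47783. Nerve replicate 1 had a fat cell sum of 38733 and a cerebellar neuron sum of 8249.9. The part of these in the differences between tissues was not tested. The spinal cord had signals at least 2-fold higher than the cerebellum, with limma's adjusted p under 0.05, for 4 of 6 members, against 12.1% of 20459 probe sets, and no member was lower, against 9.53%. Gstp1 was 3.55-fold higher in the cord, a log2 difference of 1.83 ± 0.10 (SE, limma adjusted p = 2.77e-06). Gsta1 was higher by 1.78 ± 0.18 (5.88e-05), Gsta4 by 1.97 ± 0.14 (9.44e-06) and Mgst1 by 1.98 ± 0.44 (0.00468). Gstm2 was 1.75-fold higher (adjusted p = 0.0151), under the 2-fold limit. Gstm1 did not differ beyond its spread, at 0.006 ± 0.12 with a 95% interval of -0.26 to 0.27.

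Between sciatic nerve and spinal cord, Gsta4 (1.34 ± 0.14, SE, limma adjusted p = 5.55e-05) and Gstm2 (1.76 ± 0.23, adjusted p = 0.000184) were higher in the nerve, 2 of 6 members against 10.6% of 20238 probe sets. Gstm1 was lower in the nerve by the same rule (-1.10 ± 0.12, adjusted p = 6.09e-05), 1 of 6 against 15.5%. Gstp1 (0.11 ± 0.10), Gsta1 (0.16 ± 0.18) and Mgst1 (0.67 ± 0.44) did not differ beyond their spread between these tissues, with 95% intervals of -0.12 to 0.34, -0.24 to 0.57 and -0.32 to 1.66. With nerve saline replicate 2 left out, Mgst1 passed at 1.59 (limma adjusted p = 3.06e-05), and Gstm1, at -0.92, was under the 2-fold limit.

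Between sciatic nerve and cerebellum, 5 of 6 members were higher in the nerve, against 17.7% of 20703 probe sets, and Gstm1 was lower (-1.09 ± 0.12, SE, limma adjusted p = 3.41e-05), against 20.6%. Gsta4 had the largest difference of the 6, 9.91-fold (3.31 ± 0.14, adjusted p = 1.71e-07), followed by Mgst1 at 2.65 ± 0.44 (0.000519), Gstm2 at 2.56 ± 0.23 (1.11e-05), Gsta1 at 1.94 ± 0.18 (1.39e-05) and Gstp1 at 1.93 ± 0.10 (5.29e-07). The order of levels was thus nerve, cord and cerebellum for Gsta4. For Gstm2 the nerve lay above the cord and the cerebellum, whose difference was under the 2-fold limit in saline rats and was 0.38 in acrylamide rats (limma adjusted p = 0.187). For Gstp1, Gsta1 and Mgst1 the nerve and cord were not told apart and both lay above the cerebellum. For Gstm1 the cerebellum and cord were not told apart and both lay above the nerve. The part of the Schwann cell signal of the cord arrays in these orders was not tested. Without nerve saline replicate 1 the difference of Mgst1 between nerve and cerebellum was 1.73. Without replicate 2 it was 3.57 and that of Gstm1 was -0.91, under the 2-fold limit. The difference of Gsta4 between cord and cerebellum was 1.101 in acrylamide rats, against 1.97 in saline rats.

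**Figure D4:**
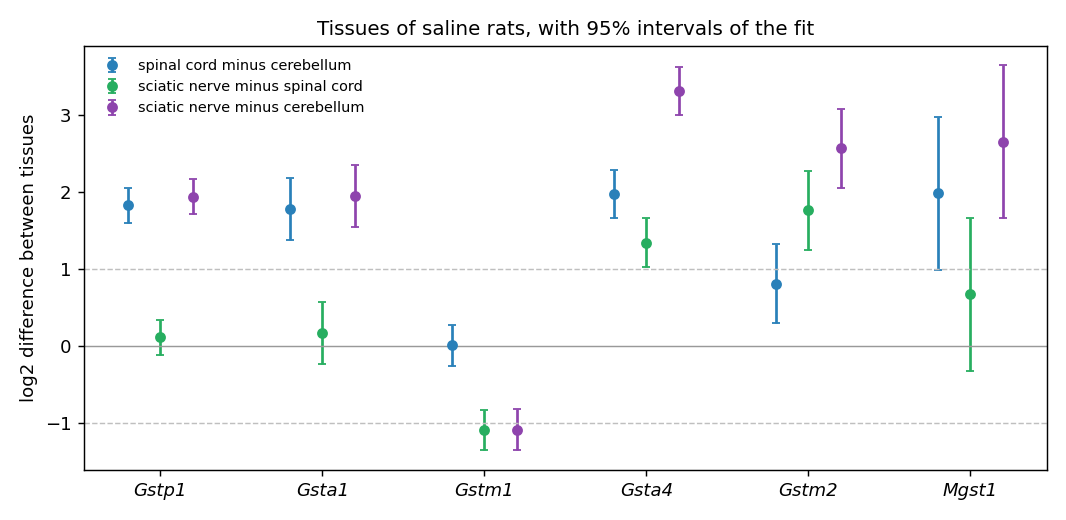
Log2 difference between tissues of saline rats for each gene, with 95% intervals from limma and dashed lines at a 2-fold difference in either direction. Gsta4 passes 2-fold in all 3 comparisons, Gstm2 in both that include the nerve, Gstp1 and Gsta1 lie near 0 only between nerve and cord, and Gstm1 is the only gene below 0, at -1.10 and -1.09 in the nerve.

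Gstp1, Gsta1 and Gstm1 share the shift with treatment, so some correlation between them within tissues follows from that shift. After each tissue mean was taken off, the Pearson correlation over the 12 arrays was 0.823 between Gsta1 and Gstp1, 0.821 between Gsta1 and Gstm1 and 0.707 between Gstp1 and Gstm1. These values include the shift with treatment and share each array's scaling. Gsta4 had correlations between -0.03 and 0.27 with the other 5. Mgst1 correlated at 0.614 with Gstm1, 0.563 with Gstm2 and 0.504 with Gsta1, but at 0.058 with Gstp1 and -0.03 with Gsta4. With tissue means kept in, Gstp1 and Gsta1 correlated at 0.985, and Gstm1 ran opposite to Gstm2 (-0.877) and Gsta4 (-0.769).

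Among 9134 genes measured in all tissues, the signals most like each member over the 12 arrays, by Pearson correlation of log2 signals, followed the tissue pattern. Vim, which encodes the filament protein vimentin of glia and mesenchymal cells, was most like Gsta4 (0.993), and the matrix gene Ltbp4 and the collagen receptor gene Ddr2 were most like Gstm2 (0.997 and 0.995). Hsd17b4 of peroxisomal fatty acid oxidation and Gatm of creatine synthesis were most like Gstp1 (both 0.985), Serpinb9 was most like Gsta1 (0.988), and Rnasek was most like Gstm1 (0.983). The gene next to it for Gstm1 was Slc7a11 (0.983), the cystine importer that supplies cysteine for glutathione. Selenop, the secreted selenium carrier, was most like Mgst1 (0.975). With tissue means taken off, the complement genes C1qb and C1qa, which microglia and macrophages make, were most like Mgst1 (0.978 and 0.952). Both belong to the microglia and macrophage markers summed above, so this is no separate result. The nerve saline arrays, with Mgst1 signals of 7003 and 1951, weigh most in these correlations. By the same measure, Tubb2b was most like Gstp1 (0.941), Erbin most like Gsta1 (0.961), Slc25a10 most like Gsta4 (0.935), Bhlhe41 most like Gstm1 (0.945) and Ddr2 most like Gstm2 (0.956).

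Other genes of the glutathione pathway were described from lists of the wider enzyme family, glutathione synthesis and recycling, export and trimming of conjugates, and NRF2 targets. No gene of the lists passed the adjusted threshold in any tissue or in the average. Of 30 other glutathione transferases and related proteins, 23 were on the arrays under 1 symbol and 16 were tested in the average, of which 9 were higher and 7 lower after acrylamide, with a median log2 difference of 0.07. The theta class gene Gstt3 was the only 1 of the 16 with an unadjusted p under 0.05. Over all probe sets 868 of 15807 had such a p in either direction, so 1 of 16 is near that share. Its signals were 697 and 683 in acrylamide cerebellum and 602 and 592 in saline cerebellum, 2457 and 2729 in acrylamide cord and 1869 and 2016 in saline cord, and 1278 and 1396 in acrylamide nerve and 1173 and 1010.3 in saline nerve. Like the 3 members above it did not overlap in any tissue, and its average was 0.30 ± 0.06 (SE, limma unadjusted p = 0.000502, adjusted p = 0.303). Clic4, Clic1 and Gstm4 had averages of 0.13 ± 0.06, 0.25 ± 0.14 and 0.12 ± 0.07.

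Of 22 genes of glutathione synthesis and recycling, 20 were tested in the average, of which 14 were higher and 6 lower, with a median of 0.04. An unadjusted p under 0.05 was reached by 1 in each direction, beside 868 of all 15807 probe sets in either direction. Me1, which supplies NADPH, had an average of 0.14 ± 0.04 (SE, limma unadjusted p = 0.00499), and the mitochondrial glutaredoxin gene Glrx5 one of -0.10 ± 0.04 (limma unadjusted p = 0.0255). Slc7a11 (0.31 ± 0.15) and Gclc, the catalytic subunit of the first enzyme of glutathione synthesis (0.13 ± 0.06), had adjusted p-values of 0.936 and 0.941. Of 25 genes of conjugate export and mercapturate formation, 12 were tested, with 5 higher and 7 lower and a median of -0.04. The leucine aminopeptidase gene Lap3 had an average of 0.21 ± 0.08, Acy1, which removes acetyl groups from mercapturates, one of -0.14 ± 0.06, the exporter gene Abcc5 one of -0.15 ± 0.08, and the aminopeptidase gene Anpep one of -0.31 ± 0.20.

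Of 21 NRF2 pathway genes and marker targets, 12 were tested in the average, with 8 higher, 4 lower and a median of 0.03, beside 0.002 for all probe sets. Nqo1, a quinone reductase, had signals of 701 and 1042 in acrylamide cerebellum and 630.5 and 691 in saline cerebellum, 1875 and 2925 in acrylamide cord and 1440.4 and 1542 in saline cord, and 2416 and 3324 in acrylamide nerve and 1907 and 2365 in saline nerve. Its acrylamide arrays were above its saline arrays in each tissue, with wide spread between the acrylamide replicates, and the average was 0.48 ± 0.14 (SE, limma unadjusted p = 0.00885, adjusted p = 0.703). Heme oxygenase gene Hmox1 had an average of 0.30 ± 0.10 (adjusted p = 0.754), Srxn1, which restores peroxiredoxins, one of 0.18 ± 0.09 and Ugdh one of 0.10 ± 0.05. The median of the 6 members, 0.32, lay above the medians of all 4 lists, a difference that was not tested. The members and lists were chosen with earlier results of these data known, so it cannot show that the members respond more.

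**Figure D5:**
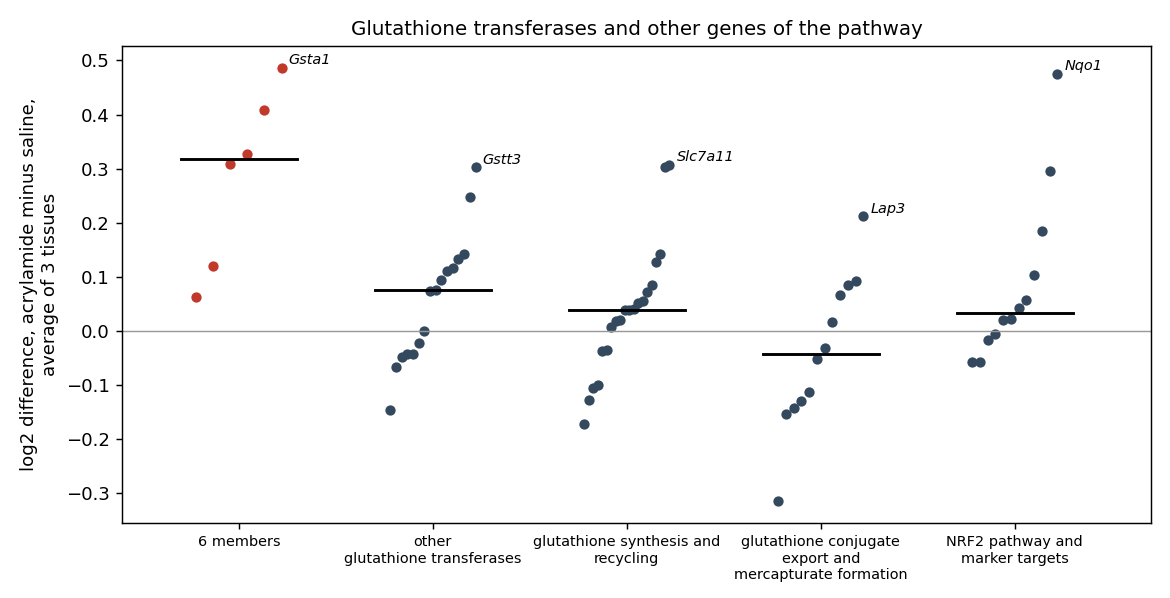
Average log2 difference of acrylamide minus saline over 3 tissues for each tested gene, as points in order of size within the 6 members (red) and 4 lists of the pathway (blue), with a line at each median. The medians are 0.32 for the 6 members and 0.07, 0.04, -0.04 and 0.03 for the lists from left to right, and Gsta1, Gstt3, Slc7a11, Lap3 and Nqo1 are the highest of their groups. Members and lists were chosen with earlier results of these data known.

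The genes have close relatives that their probes may also bind, which was not checked here. In the GRCr8 annotation Gstp1 neighbours Gstp3, Gsta1 lies between Gsta3 and Gsta6, Gsta4 lies beside Gsta5 and Gsta2, and Gstm2 and Gstm1 lie beside each other in a row with Gstm3 and Gstm4. The probe sets named for Gstp3, Gsta3 and Gstm3 were dim, with highest signals over the 12 arrays of 23.8, 52.8 and 34.9, and none passed the filter. Those named for Gstm5, Gstm4 and Gstm7 passed in every tissue. In the average they had log2 differences of 0.14 ± 0.09, 0.12 ± 0.07 and 0.08 ± 0.06 (SE), against 0.31 ± 0.07 for Gstm1. Gstm5 had a range of 2669 to 3056 in the cerebellum, 3392 to 3872 in the cord and 1139.8 to 1788 in the nerve, so like Gstm1 it was lowest in the nerve. RefSeq lists Gsta3 and Gsta5 among the older names of Gsta1.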

How the data were processed

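Biotin-labelled cRNA from pooled tissue was hybridised to 1-colour Affymetrix rat arrays, per the labels' protocols. The deposited values are linear intensity signals, 1 per probe set, which the authors made with GCOS 1.1 according to the submitters' processing notes. Its algorithm and scaling target: not given in the sources used here. The mean of every array, trimmed by 2% at each end, was 500.124 to 500.151. The arrays had thus been scaled to a common mean, and a shift shared by most genes would not be seen.

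Of 31099 probe sets, 57 controls were left out. The platform annotation named 20826 with 1 symbol, 436 with several and 9780 with none. Treatment and tissue labels gave 6 groups of 2 arrays. Values were analysed as log2(signal + 16), which understates differences of dim genes. A probe set was tested in a tissue where its mean signal passed the 40th percentile (112) of such means, for the average and the F test in all 3 tissues, and for a pair of tissues in at least 1. A limma 3.58.1 model with a mean per group and a trended eBayes (6 residual and 3.13 prior degrees of freedom) was fitted to 21332 probe sets under R 4.3.3, and the code was tested on simulated data. P-values are two-sided, with Benjamini-Hochberg adjustment over all probe sets tested in a comparison and a threshold of 0.05. An exact permutation test of 2 against 2 arrays cannot go below 0.333. Lists used the brightest probe set of a gene. The genes named were every member, up to 4 per pathway list by smallest p in the average, and the 3 most correlated genes per member, of which the first are given. The members and lists were chosen with earlier results of these data known.

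The 29 alternatives changed the scaling (quantile or median), the pseudocount (1 or 64), the filter (none, or the 60th percentile) or the eBayes step (no trend, or robust). Others added the replicate number as a block, fixed or random (statmod 1.5.0), fitted a tissue by itself, used the acrylamide arrays to compare tissues, or left out single arrays or 1 of 3 sets of arrays chosen for markers of another tissue. Where all nerve arrays were left out, the average was over cerebellum and cord.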

Additional observations from a re-analysis of the deposited data

How the results depend on the processing

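Of the counts of members called, 147 stayed within 1.5 times of those reported and 7 moved. In the average 0 members passed with all arrays, beside 2 of 15807 probe sets. Under quantile normalization 1 did, Gstp1 (0.43, limma adjusted p = 0.0188), beside 4 of 15797 probe sets. Without nerve saline replicate 1 the count of members moved through Gstp1 (0.36), Gstm1 (0.37) and Mgst1 (0.63). Without nerve saline replicate 2 it moved through Gstp1 (0.46). Both fits rest on 1 nerve saline array, and the count over all probe sets rose in them too. Leaving out any other array did not move the count of members. Without nerve saline replicate 2, the counts of members in the F test and in the nerve also moved through Mgst1, at -1.20 in the nerve. The saline array kept there was the one with the Mgst1 signal of 7003. Without cord saline replicate 1 and both nerve replicate 1 arrays (the 3 arrays below), 4 passed in the average and 1 in the nerve, where the acrylamide array kept had a muscle sum of 25500.1. Without the 2 arrays highest in muscle markers, and without cord saline replicate 1 and all nerve arrays, no member and no other probe set passed in the average. Leaving an array out leaves a group with 1 array that is assumed to vary like the others. Over 25 alternatives the average of Gstp1 lay between 0.36 and 0.46, with an adjusted p between 0.0143 and 0.679. With 1 array left out at a time, the average of Gsta1 was 0.40 to 0.57, of Gstm1 0.25 to 0.37 and of Gsta4 0.06 to 0.18, and the cerebellar difference of Gsta4 was 0.61 to 0.78.

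Directions reversed in 18 cases, in none of which the difference had passed the threshold with all arrays. Gstm1 between cord and cerebellum was -0.014 with quantile normalization and -0.032 in each of the 3 fits without cord saline replicate 1 and others, and -0.032 to 0.043 with 1 array left out. Gstp1 between nerve and cord was -0.066 with quantile normalization and -0.038 to 0.26 with 1 array left out. Mgst1 between nerve and cord was -0.32 in acrylamide arrays, -0.23 without the 3 arrays and -0.25 to 1.59 with 1 array left out, and its acrylamide difference in the nerve was 0.67 without the 3 arrays and -1.20 to 0.63 with 1 array left out. With 1 array left out, the nerve difference was -0.33 to 0.022 for Gsta4 and -0.23 to 0.42 for Gstm2, and the average of Gstm2 was -0.047 to 0.17. Without nerve acrylamide replicate 2, Gstm2 was at -0.13 in the nerve (also with cord saline replicate 1 left out) and -0.012 in the average. Gstm1 was under the 2-fold limit between nerve and cord and between nerve and cerebellum with median centring (-0.92 and -0.89), with the fixed block (-0.95 and -0.94) and without nerve saline replicate 2 (-0.92 and -0.91). The cause was not tested. At the 60th percentile Gstm2 was not tested in the cerebellum.

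The replicate numbers were not taken as pairs. Replicate deviations of acrylamide and saline arrays correlated at 0.087 in the cerebellum and -0.043 in the cord, but at 0.512 in the nerve, where both replicate 1 arrays had high cerebellar neuron sums. With a fixed replicate block within tissues, 0 members passed in the average (Gstp1 limma adjusted p = 0.0575) and 6 probe sets in all, against 2. With a random block over tissues Gstp1 had an adjusted p of 0.230. The number of arrays, 2 per group, limits precision.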
